A study of Rattus norvegicus with 32 samples.

Results

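Iron deficiency before and just after birth was compared with iron sufficiency in the adult rat hippocampus, with both sequencing batches in 1 model. All 32 RNA-seq libraries of the series entered the comparison, 16 from formerly iron-deficient rats (FID without and FIDch with choline) against 16 from iron-sufficient rats (IS without and ISch with choline). Each batch gave 8 libraries to each side, and each combination of batch and diet had 4. Members were chosen by the diet label alone, so no measured value decided which libraries were compared, and the question was which genes carried an iron difference and whether its sign held in both batches.

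The rats were Sprague-Dawley, were fed iron-sufficiently after the first postnatal week and were killed at 65 days, so that neither side was iron-deficient by diet when sampled. In the FID and FIDch groups the dams received an iron-deficient diet from early gestation into the first postnatal week, and in the ISch and FIDch groups the dams also received choline during later gestation. Batch I held the 16 male and batch II the 16 female libraries, so sex and sequencing batch cannot be told apart. The study's methods state that 1 male per litter was used in each of its experiments, and that its RNA-seq data came from an earlier study. The litters behind the male and female RNA-seq libraries were not given in the sources used here. The p-values below therefore measure only the spread between these samples. The hippocampus was sampled whole, so fewer cells of a type and less RNA per cell cannot be told apart in any value below.

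Iron enters cells bound to transferrin through the transferrin receptor (Tfrc), is stored in ferritin (Fth1, Ftl1) and leaves through ferroportin (Slc40a1). Iron regulatory proteins, the products of Aco1 and Ireb2, stabilise Tfrc mRNA and block ferritin translation when cellular iron is low. In the developing hippocampus iron serves respiratory-chain enzymes, monoamine synthesis, myelination and the iron-dependent demethylases of histones and DNA, and deficiency in this window is known for lasting effects on learning circuits.

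Library totals ran from 3515806 to 9517503 counts in batch I (the lowest in male FIDch 2) and from 18439999 to 26616318 in batch II. Hippocampal transcripts were present in every library: Slc17a7, the vesicular glutamate transporter of excitatory neurons, ran from 2127 to 2564 normalized CPM (counts scaled to library size with edgeR's TMM factors), and Prox1, which marks dentate granule cells, from 87.3 to 187. The library labelled female FID replicate 2 went against its label. It held 188 counts of Kdm5d and 297 of Eif2s3y, which are both Y-linked, while the other 15 female libraries held 0 of each (a count of 0 allows up to 3). In male libraries Kdm5d ran from 48.7 to 60.7 CPM of the raw total, against 9.75 in this library. The cause was not tested, and results are given with and without this library. A further 46 rows had at least 10 counts in every male library and 0 in all 16 female libraries, so a level in one batch was not tested against the level in the other.

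No gene passed the test for iron over both batches. Of 15070 genes tested, 0 (0%) had an adjusted p under 0.05 by the quasi-likelihood test of edgeR (p-values adjusted over all genes by the Benjamini-Hochberg method), 655 (4.35%) had an unadjusted p under 0.05, and the lowest adjusted p was 0.295. The likelihood ratio test of edgeR, DESeq2 and limma-voom also gave 0. By the study's own criterion, an absolute log2 fold change over 0.2 with an unadjusted p under 0.05, 262 genes (1.74%) differed, 130 higher (0.863%) and 132 lower (0.876%) in the formerly deficient rats. Without the library labelled female FID replicate 2 the count was 255. Of the 262, 71 had an absolute log2 fold change over 0.5 and 20 over 1. Below, "at the criterion" means this unadjusted rule, and no gene named below had an adjusted p under 0.05 over all 32 libraries.

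The batches gave unlike numbers. Batch I alone had 356 genes at the criterion (2.36%), 157 higher (1.04%) and 199 lower (1.32%). Batch II alone had 601 (3.99%), 266 higher (1.77%) and 335 lower (2.22%), and 575 without the library labelled female FID replicate 2. Neither batch had a gene with an adjusted p under 0.05 (0% in each) by edgeR's quasi-likelihood test, with 571 (3.79%) and 1508 (10%) genes at an unadjusted p under 0.05 in batches I and II. In batch II the likelihood ratio test gave 34 such genes and DESeq2 gave 55. The libraries of batch II were deeper, and the median standard error of a log2 fold change was 0.0687 there against 0.0862 in batch I. With its counts thinned to the median total of batch I, batch II had 625 genes at the criterion. The cause of the unlike numbers was not tested.

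**Figure D1:**
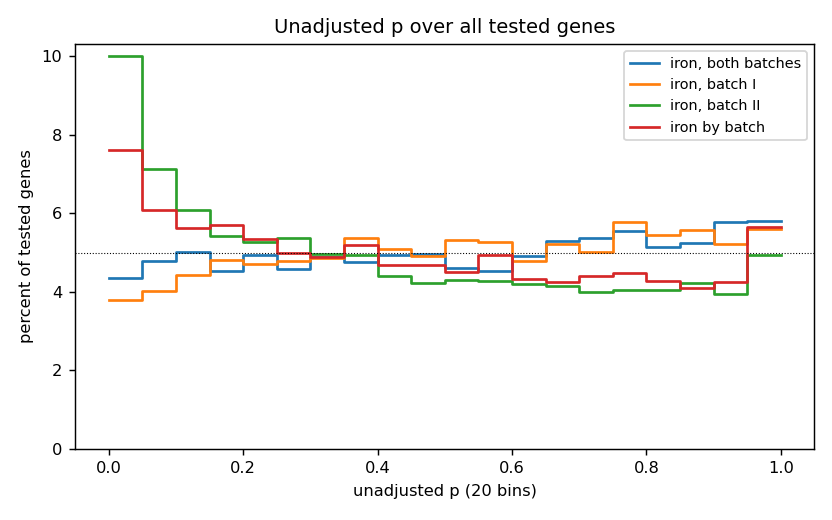
Share of the 15070 tested genes (y axis, percent) in each of 20 bins of unadjusted p (x axis) for the iron term over both batches, within batch I, within batch II, and for the iron by batch term; the dotted line marks an even spread. The lowest bin held 4.35% of genes over both batches, 3.79% in batch I, 10% in batch II and 7.62% for iron by batch.

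Signs were compared between the batches gene by gene. Over all tested genes 6851 of 15070 (45.5%) had the same sign in both batches, and the log2 fold changes of the batches had a Pearson correlation of -2.2e-06 and a Spearman correlation of -0.08 across genes, which are not independent replicates. Of the 356 genes at the criterion in batch I, 145 (40.7%) had the same sign in batch II, whose libraries had no part in choosing them. There 18 (5.06% of the 356) were at the criterion with the same sign, beside 1.83% of all tested genes at the criterion with the sign of batch I, and 17 (4.78%) with the opposite sign, beside 2.16%. Read the other way, 276 of the 601 genes of batch II (45.9%) had the same sign in batch I, and the same 18 and 17 genes made up 3.0% and 2.83% of the 601, beside 0.962% and 1.40% of all tested genes. Among the 262 genes of the joint fit 234 (89.3%) kept their sign in both batches, a share that choosing on the joint fit partly fixes.

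The iron difference was also fitted in the 4 strata of batch and choline, with 4 libraries against 4. Of the 262 genes, 154 (58.8%) had the same sign in all 4 strata, 85 higher and 69 lower, beside 1316 (8.73%) of all tested genes, and again the choice of the 262 partly fixes this. The test of iron by batch gave 780 genes at the criterion (5.18%), 1149 (7.62%) at an unadjusted p under 0.05 and 0 (0%) at an adjusted p under 0.05, with the lowest adjusted p at 0.266. The likelihood ratio test gave 11 at an adjusted p under 0.05. Without the library labelled female FID replicate 2 the interaction had 795 genes at the criterion. Iron by choline gave 1024 genes at the criterion (6.79%) and 0 (0%) with an adjusted p under 0.05 by edgeR's quasi-likelihood test, with 1526 (10.1%) at an unadjusted p under 0.05, so the iron term averages over 2 choline levels that were not shown to be alike.

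**Figure D2:**
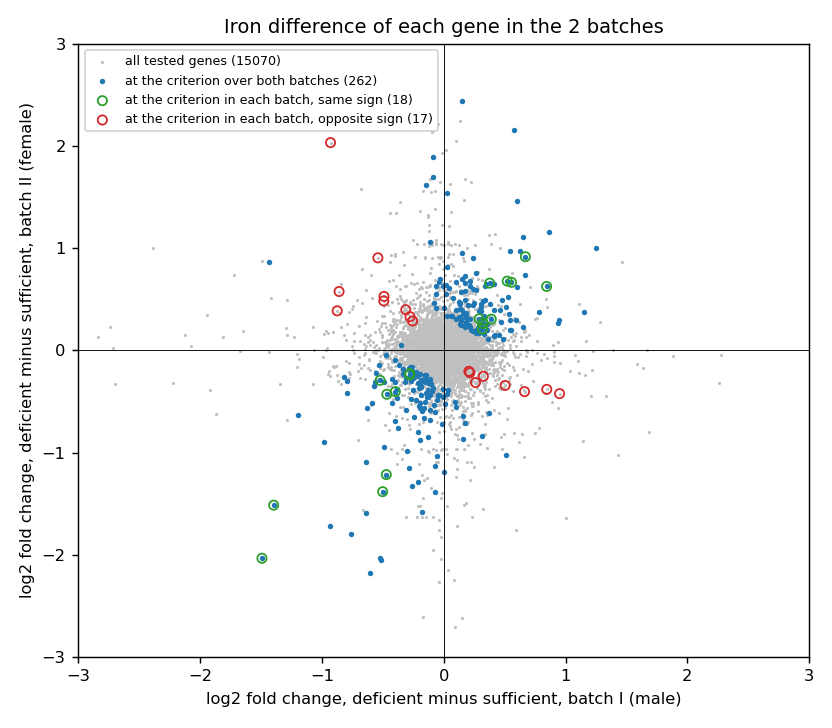
Log2 fold change (deficient minus sufficient) of each tested gene in batch I (x axis) and in batch II (y axis); grey points are all genes, blue points the 262 at the criterion over both batches, and green and red rings the 18 and 17 genes at the criterion in each batch with the same and the opposite sign. The grey cloud has no slope, and 13 genes lie outside the axes.

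The genes that regulate cellular iron differed little at 65 days. Of 21 tested genes of iron uptake, storage and export, 0 were at the criterion in either direction over both batches, beside 1.74% of all genes. Within batches I and II 0 were at it too, beside 2.36% and 3.99%, so 0 of 21 is not far from these shares. The list's median log2 fold change over both batches was 0.01, beside -0.00 for all genes. Tfrc, the receptor for transferrin, ran from 151 through a median of 163 to 194 CPM in the deficient libraries of batch II and from 131 through 145 to 173 in the sufficient ones. In batch I it ran from 158 through 172 to 216 and from 148 through 169 to 194. All 8 deficient libraries of batch II lay above the median of the sufficient ones, against 4 of 8 in batch I, and the ranges overlapped in each batch. The log2 fold change of Tfrc was 0.13 (SE 0.05) over both batches, 0.08 (SE 0.06) in batch I and 0.17 (SE 0.04) in batch II, under the limit of 0.2. By edgeR's quasi-likelihood test its unadjusted p was 0.011 over both batches (adjusted p of 1). Within the batches it was 0.248 in batch I and 0.00123 in batch II (adjusted p of 0.229 in batch II).

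Fth1, the ferritin heavy chain, had a log2 fold change of -0.02 (SE 0.04) and ran from 1142 through 1292 to 1422 CPM in the deficient and from 1138 through 1303 to 1466 in the sufficient libraries of batch II. Slc11a2, which carries iron out of endosomes, stood at 0.03 (SE 0.03), and Ireb2, an iron regulatory protein, at 0.03 (SE 0.05). Without choline Ireb2 stood at 0.16 in batch I and 0.12 in batch II, and with choline at -0.14 and -0.03. Its test of iron by choline over both batches had an unadjusted p of 0.0323 and an adjusted p of 0.444 by edgeR's quasi-likelihood test. Slc40a1, ferroportin, stood at 0.03 (SE 0.15), with raw counts from 5 to 56. The ferritin light chain row Ftl1 held 0 to 4 counts in batch I and 7 to 30 in batch II and was not among the tested genes.

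Genes that use iron gave a similar account. In heme and iron-sulfur cluster synthesis 1 of 23 tested genes was at the criterion (beside 1.74% of all genes), the lower Uros, the uroporphyrinogen synthase of the heme pathway. It ran from 8.30 through 9.72 to 10.9 CPM in the deficient and from 8.87 through 11.5 to 13.6 in the sufficient libraries of batch I, where none of the 8 deficient libraries reached the sufficient median. In batch II the values were 4.35, 8.47 and 10.5 against 7.0, 9.97 and 11.7, with 2 of 8 above it. Its log2 fold change was -0.23 (SE 0.09) with an unadjusted p of 0.0146 and an adjusted p of 1 by edgeR's quasi-likelihood test. In RefSeq Uros overlaps Bccip, and the strand setting of the counting was not given in the sources used here, so reads of the pair cannot be told apart.

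No member of the 13 mitochondrially encoded genes, the 29 nuclear respiratory-chain genes or the 21 iron-dependent histone and DNA demethylases was at the criterion over both batches. Over all genes that share was 1.74%. In batch II all 29 nuclear respiratory genes had a log2 fold change above 0, from 0.003 to 0.097, against 13 of 29 in batch I, where they ran from -0.11 to 0.06. Over all genes 49.8% lay above 0 in batch II. The mitochondrially encoded genes lay above 0 in 2 of 13 in batch II and in 7 of 13 in batch I, with Mt-atp8 (-0.27) and Mt-nd6 (-0.26) at the criterion in batch II (beside 2.22% of all genes as lower). For Mt-atp8, a subunit of ATP synthase, the test of iron by batch had an unadjusted p of 0.00724. No gene of these lists had an adjusted p under 0.05.

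Among genes with the same sign in both batches, Hmgn5b, a member of the family of nucleosome-binding HMGN proteins, had the lowest p of those higher after deficiency. Its CPM were 3.33 lowest, 4.54 median and 5.67 highest in the deficient libraries of batch I, against 2.74, 3.42 and 4.16. In batch II they were 2.72, 4.23 and 7.51 against 2.27, 2.97 and 3.14. In batch I 5 of 8 and in batch II 6 of 8 deficient libraries lay above every sufficient library of their batch, and the ranges still overlapped. Deficient against sufficient, the log2 fold change was 0.54 (SE 0.11) over both batches, 0.38 in batch I and 0.66 in batch II, with an unadjusted p of 4.38e-05 and an adjusted p of 0.33 by edgeR's quasi-likelihood test. Without the library labelled female FID replicate 2 it was 0.51. The RefSeq gene Otud7a overlaps Hmgn5b.

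Prkx, a catalytic subunit of cAMP-dependent protein kinase, ran from 13.5 through 15.0 to 17.9 CPM in the deficient and from 11 through 12.5 to 14.3 in the sufficient libraries of batch I. All 8 deficient libraries there were above the sufficient median. In batch II it ran from 11.9 through 14.3 to 19.0 and from 10.5 through 12.3 to 14.8, with 7 of 8 above the median and 1 above the range. Its log2 fold change was 0.26 (SE 0.06), 0.32 in batch I and 0.21 in batch II, with an adjusted p of 0.399 by edgeR's quasi-likelihood test. Ckap2, a spindle protein of dividing cells, had a log2 fold change of 0.69 (SE 0.17) and the same sign in both batches (0.84 and 0.63), on 1 to 9 counts per library in batch I and 5 to 29 in batch II.

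P2rx3, an ATP-gated cation channel of sensory neurons, ran from 6.58 through 8.23 to 9.35 CPM in the deficient and from 5.47 through 5.68 to 7.72 in the sufficient libraries of batch I, where 6 of 8 deficient libraries were above the sufficient range. In batch II it ran from 1.72 through 2.41 to 3.22 and from 1.17 through 1.91 to 2.95, with 5 of 8 above the median. On the log2 scale the difference was 0.35 (SE 0.09), 0.39 in batch I and 0.31 in batch II, with an adjusted p of 0.724 by edgeR's quasi-likelihood test. P2rx3 overlaps Ssrp1 in RefSeq.

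Tacr3, the neurokinin 3 receptor, ran from 5.22 through 10.5 to 12.1 CPM in the deficient and from 4.88 through 6.95 to 9.23 in the sufficient libraries of batch I, with 7 of 8 deficient libraries above the sufficient range. The exception was male FIDch 2, the shallowest library. In batch II Tacr3 ran from 5.86 through 8.07 to 11.5 and from 1.31 through 5.29 to 10.5, with 8 of 8 above the median and wide overlap. Its log2 fold change was 0.62 (SE 0.17), 0.56 in batch I and 0.67 in batch II.

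Kcnj2, an inward-rectifier potassium channel, had 7 of 8 deficient libraries of batch II above the sufficient range of 4.38 to 5.23 CPM, with a median of 7.01 and a highest value of 8.17, while the remaining one stood at 3.92. In batch I the deficient libraries ran from 3.02 through 6.57 to 9.02 and the sufficient ones from 4.25 through 5.14 to 8.28. Deficient against sufficient, the log2 fold change was 0.49 in batch II, 0.18 in batch I and 0.35 (SE 0.10) over both, and the difference between batches had an unadjusted p of 0.103.

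Acan, the aggrecan core of perineuronal nets, was higher by 0.21 (SE 0.06) on the log2 scale, 0.26 in batch I and 0.17 in batch II. Its CPM were 10.4, 11.5 and 12.9 (lowest, median, highest) in the deficient against 7.24, 9.82 and 12.2 in the sufficient libraries of batch I, and 11.4, 14.2 and 16.8 against 10.9, 12.5 and 13.6 in batch II. So 8 of 8 and 7 of 8 deficient libraries lay above their sufficient median. Leaving out any 1 of 7 libraries put Acan below the fold limit or over the p limit. Nrg1, a ligand of ErbB receptors, stood at 0.43 (SE 0.13), with 0.53 in batch I and 0.36 in batch II, and 7 of 8 and 8 of 8 deficient libraries above the sufficient median.

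Genes induced by interferon were among those with higher values. Of 22 tested genes of interferon response and antigen presentation, 3 were at the criterion as higher (beside 0.863% of all genes) and 0 as lower (0.876%). Within batch II 5 were higher (1.77%) and 0 lower (2.22%), and within batch I 1 was higher (1.04%) and 1 lower (1.32%). The median log2 fold change of the list was 0.05 over both batches, 0.19 in batch II and 0.03 in batch I. Of the 22 genes 13 lay above 0 over both batches, 12 in batch I and 14 in batch II, beside 48.4%, 49.6% and 49.8% of all genes. Over both batches the list ran from -0.60 to 1.63. The 3 genes were Irf7, Ifit1 and Oas1a. Outside the list, Rtp4 and Lgals3bp are also known to be induced by interferon, but they were named for their low p among higher genes.

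Rtp4, a chaperone of cell-surface receptors, ran from 1.10 through 2.32 to 3.77 CPM in the deficient and from 1.40 through 1.68 to 2.32 in the sufficient libraries of batch I. In batch II it ran from 1.09 through 2.62 to 3.36 and from 0.625 through 1.61 to 2.52. In each batch 7 of 8 deficient libraries were above the sufficient median, and in each batch a FIDch library was the lowest of the deficient side. On the log2 scale the difference was 0.61 (SE 0.16), 0.52 in batch I and 0.68 in batch II, with an adjusted p of 0.724 by edgeR's quasi-likelihood test. Rtp4 overlaps Masp1 in RefSeq.

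Lgals3bp, a secreted galectin-binding protein, gave nearly equal differences in the batches, 0.29 in batch I and 0.31 in batch II, and 0.30 (SE 0.07) over both. It ran from 15.1 through 20.6 to 24.9 CPM in the deficient and from 14.6 through 16.1 to 21.8 in the sufficient libraries of batch I. In batch II it ran from 17.5 through 21.8 to 26.5 and from 14.3 through 17.8 to 21.3. Here 7 of 8 deficient libraries in each batch were above the sufficient median, and the ranges overlapped.

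Irf7, the transcription factor that amplifies interferon production, had log2 fold changes of 0.44 (SE 0.15) over both batches, 0.66 in batch II and 0.17 in batch I. In batch II it ran from 4.12 through 5.47 to 8.85 CPM in the deficient and from 1.65 through 3.90 to 5.64 in the sufficient libraries. In batch I the values were 3.77, 7.74 and 8.84 against 4.53, 5.82 and 8.26. All 8 deficient libraries of batch II were above the sufficient median, but in batch I 3 of 8 lay below the whole sufficient range. Oas1a, an antiviral oligoadenylate synthetase, stood at 0.53 (SE 0.20), 0.68 in batch II and 0.22 in batch I, on 1 to 11 counts per library in batch I and 7 to 54 in batch II. Ifit1 rested on batch I (1.39, SE 0.57), since in batch II the 8 sufficient libraries and 6 of 8 deficient ones had 0 counts and the highest had 17. The summed CPM of the whole interferon list overlapped between the sides. In batch I it ran from 324 through a median of 352 to 432 in the deficient and from 341 through 391 to 433 in the sufficient libraries. In batch II it ran from 443 through 464 to 552 and from 405 through 459 to 491. Microglial genes, whose cells respond to interferon, had sums from 457 to 594 and from 466 to 565 there. Their batch I sums ran from 383 to 487 and from 437 to 483. Of their 14 tested genes 1, the lysosomal Cd68, was at the criterion over both batches (0.34, SE 0.15, beside 1.74% of all genes). Cd68 was not at the criterion within either batch (unadjusted p of 0.183 and 0.133) and was at it in 35 of 45 alternatives.

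Interferon-induced genes are bound upstream of their start sites by factors that read the core of the interferon-stimulated response element, GAAANNGAAA. That run of letters was searched on both strands in the RefSeq promoters of build GRCr8, which span 250 bases before to 50 after each start. It was held by 8 of the 16 list members with a promoter in the table (50%), beside 2.77% of the 10637 tested genes with one and 3.92% of all 33469 promoters. Lgals3bp also held it, and Rtp4 and Ifit1 had no entry. The windows around the matches are shown for the genes whose iron differences are described here, printed along the gene's strand, 5′ to 3′, with the matches in capitals. They lie at chr10:104127864-104127923 (Lgals3bp, minus strand), chr1:205800058-205800117 (Irf7, minus strand), chr12:41330400-41330465 (Oas1a, plus strand, a pair of overlapping matches) and chr6:128355118-128355262 (Ifi27, plus strand, a pair of matches).
Lgals3bp: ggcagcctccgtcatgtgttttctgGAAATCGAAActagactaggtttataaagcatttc
Irf7: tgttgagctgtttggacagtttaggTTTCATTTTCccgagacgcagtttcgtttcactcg
Oas1a: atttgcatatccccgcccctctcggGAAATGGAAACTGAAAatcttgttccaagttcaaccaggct
Ifi27: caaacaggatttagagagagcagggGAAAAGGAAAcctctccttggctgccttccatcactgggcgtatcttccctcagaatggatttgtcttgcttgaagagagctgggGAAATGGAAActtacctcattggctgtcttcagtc
In Irf7 the match is on the opposite strand. The counts were made on build Rnor_6.0, so these positions were not joined to them. In batch I the log2 fold changes were 0.29 (SE 0.11) for Lgals3bp, 0.17 (SE 0.17) for Irf7 and 0.22 (SE 0.34) for Oas1a, the latter pair with unadjusted p values of 0.335 and 0.53.

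Ifi27, a mitochondrial interferon-induced protein, had opposite signs in the batches. In batch I it ran from 26.7 through 32.6 to 84.7 CPM in the deficient and from 31.4 through 71.0 to 101 in the sufficient libraries, and 1 of 8 deficient libraries, male FIDch 2, was above the sufficient median. In batch II it ran from 58.7 through 99.6 to 120 and from 36.5 through 79.3 to 96.8, with 6 of 8 above. Deficient against sufficient, the log2 fold change was -0.87 (SE 0.23) in batch I and 0.39 (SE 0.13) in batch II, and the test of iron by batch had an unadjusted p of 8.35e-05 and an adjusted p of 0.266 by edgeR's quasi-likelihood test.

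**Figure D3:**
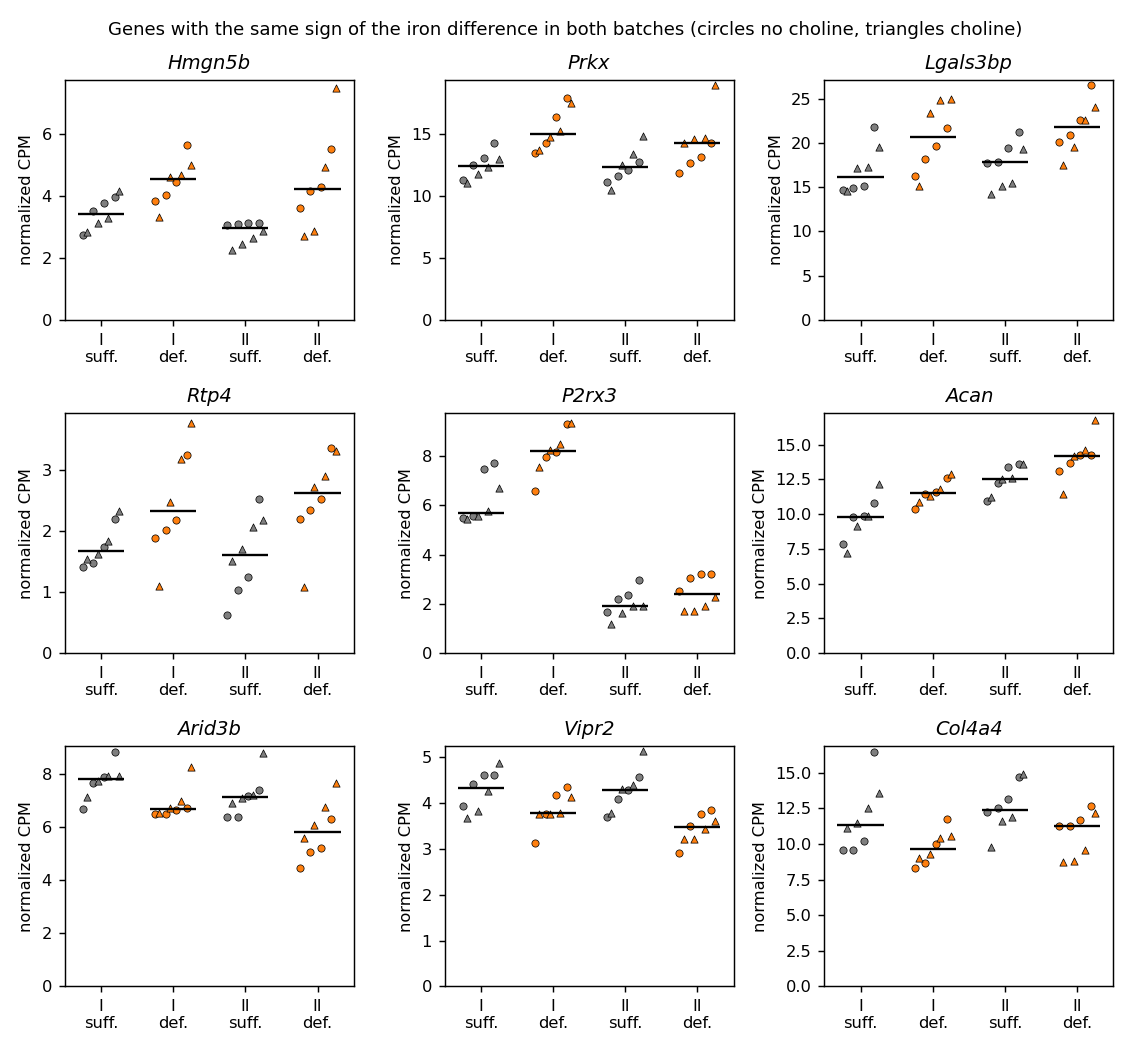
Normalized CPM (y axis, from 0) of 9 genes in each of the 32 libraries, by batch and iron (sufficient grey, deficient orange; circles without and triangles with choline; bars are medians of 8). Hmgn5b, Prkx, Lgals3bp, Rtp4, P2rx3 and Acan have higher and Arid3b, Vipr2 and Col4a4 lower medians on the deficient side of both batches, and every pair of groups overlaps.

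Vipr2, a receptor for vasoactive intestinal peptide and PACAP, ran from 2.9 through 3.47 to 3.84 CPM in the deficient and from 3.70 through 4.29 to 5.13 in the sufficient libraries of batch II, where 6 of 8 deficient libraries lay below every sufficient one. In batch I the values were 3.12, 3.78 and 4.35 against 3.68, 4.34 and 4.87, with 1 of 8 below the range. The log2 fold change was -0.25 (SE 0.06), -0.31 in batch II and -0.16 in batch I, with an adjusted p of 0.724 by edgeR's quasi-likelihood test. Arid3b, an AT-rich DNA-binding transcription factor, stood at -0.24 (SE 0.06), with 6 of 8 deficient libraries of batch II and 4 of 8 of batch I below every sufficient one. Its medians were 5.82 against 7.11 CPM in batch II and 6.67 against 7.79 in batch I.

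Acer2, an alkaline ceramidase, had medians of 9.14 CPM in the deficient and 13.6 in the sufficient libraries of batch II, and 5.77 against 7.35 in batch I, where 5 of 8 deficient libraries were below the sufficient range and 1 was above it. Its log2 fold change was -0.41 (SE 0.11), -0.56 in batch II and -0.17 in batch I. Col4a4, a basement-membrane collagen chain, differed by nearly the same amount in the batches (-0.28 and -0.23, and -0.25 with SE 0.07 over both). It had 4 of 8 deficient libraries below the sufficient range in batch I and 3 of 8 in batch II, with medians of 9.62 against 11.3 CPM and 11.3 against 12.4. B4galt4, a galactosyltransferase, stood at -0.24 (SE 0.06), Dhrs1, a short-chain dehydrogenase, at -0.22 (SE 0.06), and Ceacam1, a cell adhesion molecule, at -0.33 (SE 0.10). Each had a negative log2 fold change in all 4 strata, which choosing on the joint fit partly fixes. In batch II B4galt4 stood at -0.46 without and -0.05 with choline. Its test of iron by choline over both batches had an unadjusted p of 0.0239 and an adjusted p of 0.433 by edgeR's quasi-likelihood test. Zfp78, a zinc-finger gene, stood at -0.41 (SE 0.12) with 1 stratum near 0 (0.06, batch I without choline). Fam181b stood at -0.21 (SE 0.06), near the limit of 0.2, and was at the criterion in 31 of 45 alternatives. Those off it included DESeq2, limma-voom and the fit without the library labelled female FID replicate 2 (-0.20).

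Among the named genes at the criterion, some large differences came from rows with low or widely varying counts. Tnks2, named for a tankyrase, had the lowest p of all genes (1.96e-05, adjusted p 0.295 by edgeR's quasi-likelihood test) at -2.0 (SE 0.40). In batch II it ran from 0.645 through 1.2 to 3.29 CPM in the deficient and from 0.670 through 9.64 to 14.7 in the sufficient libraries, but in batch I no library had more than 5 counts. None of the 16 deficient libraries was above the sufficient median of its batch. Leaving out female IS 3 or female IS 4 gave it an adjusted p of 0.0123 or 0.0192. Selenow, a small selenoprotein, stood at -2.07 (SE 0.55), from 23 to 1072 counts among the sufficient and from 33 to 453 among the deficient libraries of batch II, and with at most 8 counts in batch I. Tagln3, a neuronal actin-binding protein, stood at -1.70 (SE 0.49) but had medians of 4.62 CPM in the deficient and 4.54 in the sufficient libraries of batch II, with 119 in female IS 1 alone. Without female IS 1 its log2 fold change was -0.49. Tsc22d4 stood at 1.04 (SE 0.28), on at most 9 counts in batch I, with medians of 3.09 against 1.93 CPM in batch II. C7, a complement component, stood at 0.80 (SE 0.22), on 3 to 26 counts per library in batch I and 10 to 62 in batch II.

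The 18 genes at the criterion in each batch with the same sign were 9 higher and 9 lower, and 11 of them are described above. Of the other 7, chosen after their values were seen, Stk17b, a kinase linked to apoptosis, had 6 of 8 deficient libraries below the sufficient range in batch I (7.15 through 9.16 to 14.9 CPM against 10.8 through 12 to 12.8). In batch II it had 2 of 8 (7.66 through 9.87 to 12 against 9.66 through 11.2 to 14.2), and its log2 fold changes were -0.28 and -0.24. Rad21l1, a cohesin subunit, stood at -0.47 and -0.43, and Mfsd14a, a transporter-like gene, at -0.50 and -1.38. Mfsd14a medians in batch II were 0.792 CPM in the deficient and 1.12 in the sufficient libraries, with a highest sufficient value of 9.09. Its raw counts there ran from 11 to 35 and from 12 to 167. Its batch I medians were 6.14 and 8.74 CPM, with a highest sufficient value of 20.6. Mfsd14a overlaps Slc35a3 in RefSeq. A further 3, LOC108352650, LOC100910438 and AABR07044362.4, carry no gene name.

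Besides Ifi27, 16 genes were at the criterion in both batches with opposite signs, and the 4 with the lowest interaction p are described, Ifi27 among them. Gsn, gelsolin, an actin-severing protein of oligodendrocytes and other cells, ran from 79.9 through 106 to 124 CPM in the deficient and from 112 through 123 to 142 in the sufficient libraries of batch I, with 6 of 8 deficient libraries below the sufficient range. In batch II it ran from 108 through 134 to 165 and from 92.2 through 110 to 134, with 4 of 8 above the range. The log2 fold change was -0.26 (SE 0.06) in batch I and 0.29 (SE 0.09) in batch II, with an unadjusted interaction p of 3.76e-05 and an adjusted p of 0.266 by edgeR's quasi-likelihood test. In batch II the log2 fold change was 0.59 without and -0.01 with choline, and the test of iron by choline over both batches had an unadjusted p of 0.105 and an adjusted p of 0.574 by edgeR's quasi-likelihood test. Over both batches Gsn stood at 0.03 (SE 0.08).

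Colec12, a scavenger receptor of the vascular wall, stood at -0.31 (SE 0.10) in batch I and 0.40 (SE 0.12) in batch II. No deficient library of batch I and all 8 of batch II lay above the sufficient median. Tmem100, a transmembrane protein of endothelium and neurons, had the reverse order, 0.21 (SE 0.08) in batch I and -0.22 (SE 0.06) in batch II, with 8 of 8 and 1 of 8 deficient libraries above the sufficient median. None of these 4 genes was at the criterion over both batches.

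The stress and activity genes at the criterion over both batches had most of their difference in batch II. Ddit4, an inhibitor of mTOR complex 1 induced by hypoxia and glucocorticoids, ran from 38.6 through 47.0 to 70.0 CPM in the deficient and from 55.2 through 66.9 to 75.7 in the sufficient libraries of batch II, with 7 of 8 deficient libraries below the sufficient range. In batch I it ran from 35.1 through 43.1 to 63.0 and from 34.0 through 46.6 to 51.5. The log2 fold change was -0.42 (SE 0.10) in batch II and 0.03 (SE 0.10) in batch I, with an unadjusted interaction p of 0.00434 (adjusted p 0.429 by edgeR's quasi-likelihood test). Sik1, a salt-inducible kinase that restrains CREB-driven transcription, ran from 6.70 through 8.51 to 14.5 and from 9.74 through 15.1 to 20.5 CPM in batch II. It stood at -0.64 (SE 0.15) in batch II and 0.16 (SE 0.19) in batch I, with an unadjusted interaction p of 0.00371.

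Of 22 activity-induced genes 2 were at the criterion as lower over both batches (0.876% of all genes) and 0 as higher (0.863%), Sik1 and Nr4a1, an orphan nuclear receptor (-0.26, SE 0.12). In batch II 5 were lower (2.22%) and 2 higher (1.77%), and in batch I 0 were lower (1.32%) and 0 higher (1.04%). Nr4a1 had 7 of 8 deficient libraries of batch II below the sufficient range of 51.0 to 90.6 CPM, with the highest, female FIDch 4, at 84.0. The clock gene Per1, which light and glucocorticoids induce, stood at -0.37 in batch II and 0.16 in batch I, with an unadjusted interaction p of 0.00011. The other lower genes of batch II were Egr2 (-0.49) and Gadd45b (-0.24), and the higher ones were Npas4 (0.62) and Ier2 (0.24), all immediate-early or stress-induced genes. Fos stood at 0.29 in batch II and -0.31 in batch I, with unadjusted p values of 0.189 and 0.212. Over the alternatives the list had 0 to 6 lower genes, and Sik1 was at the criterion in 34 and Nr4a1 in 40 of 45, neither of them with DESeq2. Hif3a, a hypoxia-inducible factor subunit, stood at -0.60 (SE 0.27) on 3 to 38 counts per library, and 7 of 8 deficient libraries of batch II were below the sufficient range.

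**Figure D4:**
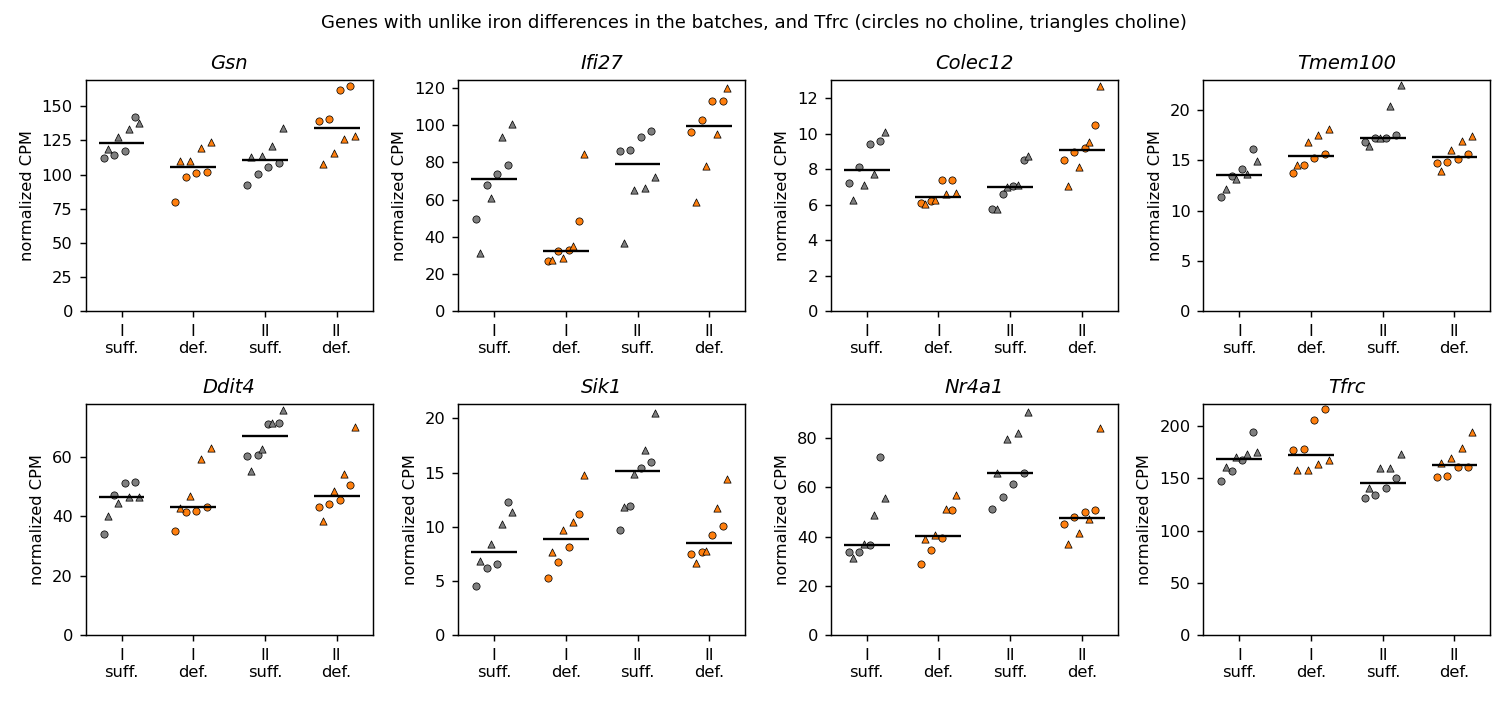
Normalized CPM (y axis, from 0) of 8 genes in each library, by batch and iron (sufficient grey, deficient orange; circles without and triangles with choline; bars are medians of 8). Gsn, Ifi27 and Colec12 have lower medians on the deficient side of batch I and higher ones in batch II, Tmem100 the reverse, and Ddit4, Sik1 and Nr4a1 have lower medians on the deficient side in batch II. In batch I the deficient medians of Sik1 and Nr4a1 are the higher ones, and those of Tfrc are higher in both batches.

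Genes of the functions that iron is known for in this tissue had list medians near 0 over both batches. Of 22 glutamate receptor genes, 20 plasticity kinases and phosphatases, 17 genes of amyloid precursor processing and tau, and 24 oligodendrocyte and myelin genes, 0 were at the criterion over both batches. Over all genes that share was 1.74%. Their median log2 fold changes were -0.01, 0.003, -0.01 and 0.006 in that order of lists. Within batches I and II 1 glutamate receptor gene each was at the criterion as lower (1.32% and 2.22% of all genes). Of the oligodendrocyte and myelin genes 5 lay above 0 in batch I (median -0.04) and 18 in batch II (median 0.03), beside 49.6% and 49.8%. Of these genes 1 was lower in batch I (1.32%), and 2 were higher (1.77%) and 1 lower (2.22%) in batch II. Bdnf, the neurotrophin, stood at -0.01 (SE 0.08) and App, the amyloid precursor protein, at -0.00 (SE 0.02). Among 19 monoamine genes Drd1, the D1 dopamine receptor, was at the criterion (0.21, SE 0.10, beside 1.74% of all genes), with 0.34 in batch II and 0.03 in batch I. Without choline its log2 fold change was 0.27 in batch I and 0.68 in batch II, and with choline -0.23 and 0.003. The test of iron by choline over both batches had an unadjusted p of 0.00189 and an adjusted p of 0.271 by edgeR's quasi-likelihood test. Drd1 was at the criterion in 25 of 45 alternatives, and not without the library labelled female FID replicate 2 (0.19). It is also a striatal marker, and it was the 1 gene of 15 in the thalamus and striatum list at the criterion, with list sums of 220 to 245 and 214 to 243 CPM in the deficient and sufficient libraries of batch II.

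Cell-type lists gave few differences. Astrocyte, endothelial, interneuron, CA1, CA2 and CA3, dentate gyrus and blood markers each had 0 genes at the criterion over both batches. Over all genes that share was 1.74%. Of 15 astrocyte genes 2 lay above 0 over both batches and 6 in batch I, beside 48.4% and 49.6% of all genes. Their median was -0.06 over both batches, -0.04 in batch I and -0.08 in batch II. In batch II Glul, glutamine synthetase (-0.21), and the connexin Gjb6 (-0.22) were at the criterion (beside 2.22% of all genes as lower). The sum of the astrocyte list ran from 7093 to 8027 CPM in the deficient and from 7524 to 8922 in the sufficient libraries of batch II. All 6 tested blood rows lay below 0 over both batches (48.4% of all genes lay above 0), with sums that overlapped between the sides (122 to 384 and 102 to 309 CPM in batch II). In batch I the blood sums ran from 74.4 through a median of 120 to 140 CPM in the deficient and from 94.2 through 106 to 212 in the sufficient libraries.

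The choroid plexus list stood apart in 1 library. Ttr, transthyretin, the main secreted protein of choroid plexus, had 2914 counts (342 CPM) in male FID 4, against 13.8 CPM at most in the other 7 deficient libraries of batch I and 3.49 at most in the sufficient ones. Ttr lay above the sufficient range in 5 of 8 deficient libraries of batch I and below it in 1, with medians of 3.81 and 1.32 CPM. In batch II 1 of 8 deficient libraries lay above the sufficient range and 3 below it. Over both batches its log2 fold change was 1.80 (SE 0.72), and without male FID 4 it was 0.45. The summed CPM of the 6 tested choroid plexus genes was 573 in male FID 4 and at most 124 in the 8 sufficient libraries of batch I, and Clic6, another choroid plexus gene, also had its highest value there (14.8 CPM). With male FID 4 the list had a median log2 fold change of 0.33 over both batches, 1.05 in batch I and -0.16 in batch II, and without it -0.04 over both batches. The part of these transcripts in other values of male FID 4 was not tested.

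**Figure D5:**
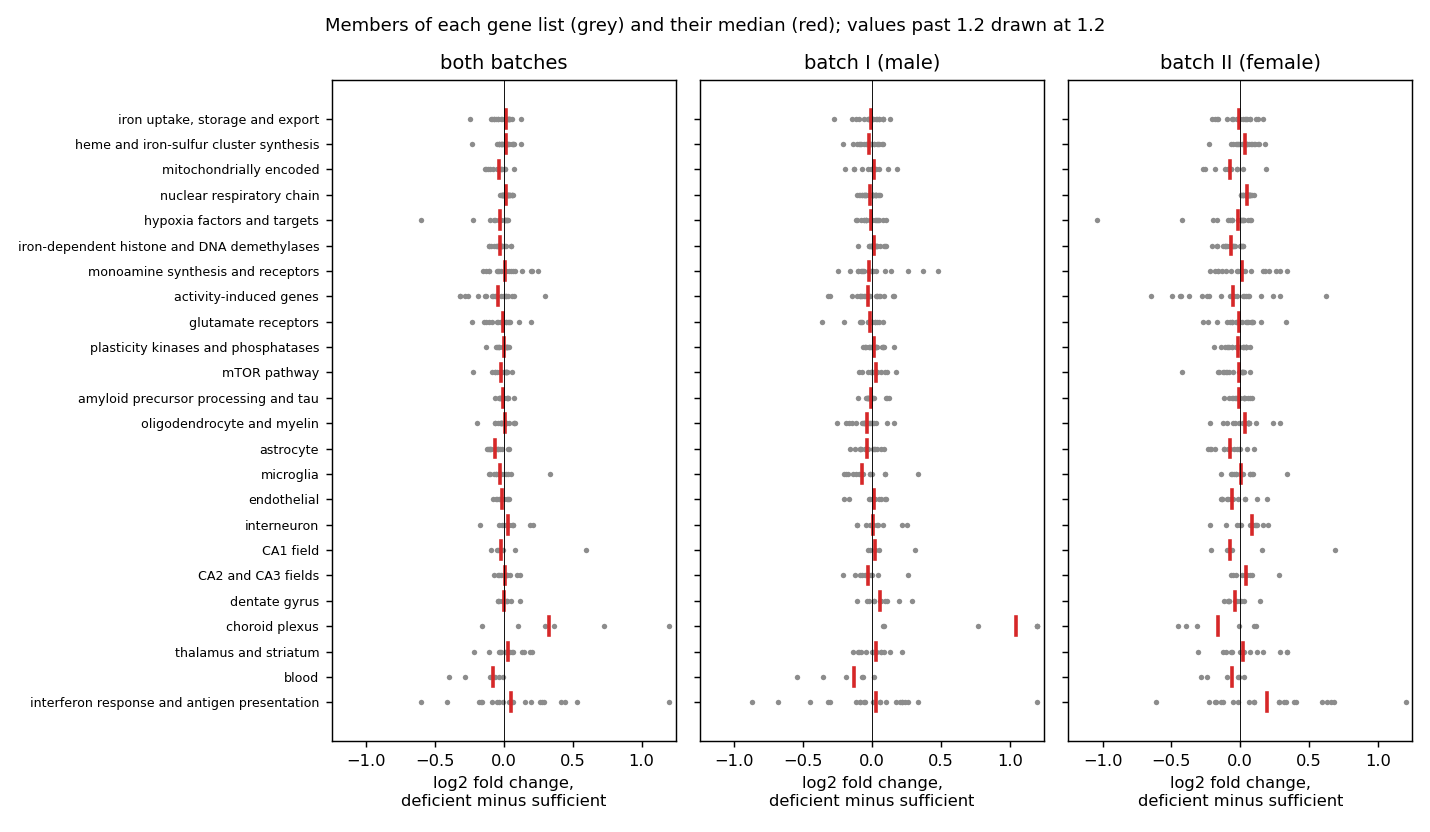
Log2 fold change (x axis, deficient minus sufficient) of each tested member (grey points) of 24 gene lists (y axis), with the list's median in red, over both batches and within each batch; values past 1.2 are drawn at 1.2. The choroid plexus median is 0.33 over both batches, 1.05 in batch I and -0.16 in batch II, and that of the interferon list is 0.19 in batch II.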

How the data were processed

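Hippocampal RNA was sequenced from 32 rats. The authors deposited raw counts per gene, 1 table per batch, made per the labels with Trimmomatic, HISAT2 and featureCounts (Subread) on Rnor_6.0; the strand setting was not given in the sources used here. The tables held 32883 shared rows, joined by gene identifier, and 2799 rows share a symbol with another. Counts were tested as deposited with edgeR 4.0.16 in R 4.3.3 (TMM, filterByExpr, quasi-likelihood test, Benjamini-Hochberg adjustment over 15070 genes). The joint model held batch, iron and choline; each batch was also fitted alone with choline. Alternatives used edgeR's likelihood ratio test, DESeq2 1.42.0, limma-voom 3.58.1, other scaling, filters, terms, thinning and omitted libraries. The tests were tried on simulated data. Replicates differed by more than counting noise (chi-square per gene 2.02 to 25.2 over 48 pairs), so none was counted as a duplicate. Floors and depths cover counting error only.

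Genes named were, by rule, the 12 higher and 12 lower with the lowest p at the criterion and a symbol of their own, up to 4 members of each list at the criterion, up to 4 genes with opposite signs, and Tfrc, Slc11a2, Slc40a1, Fth1, Ftl1, Ireb2, Bdnf and App. The comparison, its lists and this rule were chosen with earlier results of these data known, so no list is independent support. Of 66 genes looked up, 60 matched RefSeq (GRCr8) by symbol and 23 overlap another gene there. List and cell-type markers absent from the tables were not used here. Of the 18 genes at the criterion in each batch with the same sign, 1 is not reported here.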

Additional observations from a re-analysis of the deposited data

Results flagged for a closer look

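A single library stood far from the other 7 of its batch and iron group (Dixon's test at its 95% critical value) in 21 of 183 groups of 8 over the 46 named genes, where chance flags about 1 in 20. The 7 widest gaps, as a share of the group's range, were in Ttr (342 CPM in male FID 4 and 14.7 in female FID 3), Tagln3 (119 in female IS 1 and 12.4 in male ISch 4), Selenow (20.5 in female FIDch 3 and 1.16 in male FIDch 4) and Ifit1 (0.77 in female FIDch 3). Male FIDch 2, the shallowest library, gave 4 of the values, with Tacr3 lowest at 5.22 CPM and Arid3b (8.25), Hif3a (2.75) and Ifi27 (84.7) highest.

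Other high values were Prkx at 19.0 CPM in female FIDch 2, Tsc22d4 at 0.967 in male FIDch 3, Arid3b at 8.78 in female ISch 2, B4galt4 at 22.2 in female IS 3, Dhrs1 at 24.2 in female ISch 1, Hif3a at 1.32 in female FIDch 1, Nr4a1 at 84.0 in female FIDch 4 and Irf7 at 8.26 in male IS 1. Low values were Ceacam1 at 2.80 CPM in male FID 2 and Ireb2 at 34.0 in male IS 1.

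The library labelled female FID replicate 2 held 188 counts of Kdm5d and 297 of Eif2s3y, Y-linked genes at 0 in the other 15 female libraries. With 2 further rows of this kind, including a row named Ddx3, its values were 14.3% to 22.6% of the male median. Of the 46 named genes 44 kept their sign without it, the largest shift was 0.15 on the log2 scale (Ttr), and 32 of 35 stayed at the criterion, all but Fam181b, Hif3a and Drd1. No named gene had an adjusted p under 0.05 for iron by batch with edgeR's quasi-likelihood test.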

How the results depend on the processing

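The count at the criterion over both batches, 262, became 833 with all 23643 genes that had a count, 655 with no limit on the fold change, and 237 to 325 when each library was left out in turn. It was 242 with DESeq2, 357 with limma-voom and 292 with the iron difference averaged over the 8 combinations of batch and diet. Genes with an adjusted p under 0.05 over both batches were 0 to 1 when each library was left out, the 1 being Tnks2 without female IS 3 or without female IS 4. In batch II that count was 34 by the likelihood ratio test, 55 by DESeq2 and 1 with thinned counts. It was 0 to 9 with libraries left out (6 without female ISch 1, 3 without female FIDch 1 and 9 without female FIDch 4), and the interaction had 11 by the likelihood ratio test. The cause of these moves was not tested. Left-out libraries gave 318 to 409 genes at the criterion in batch I and 497 to 804 in batch II.

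Replicate numbers did not pair the samples (mean correlation of same-numbered libraries -0.014 to 0.013). With the replicate block 248 genes were at the criterion over both batches, 343 in batch I and 556 in batch II, and of the genes at the criterion in each batch 16 shared and 18 opposed their sign. Over 2068 results of single genes and settings, 1937 kept direction and side of the threshold, 101 kept direction only, 30 moved and 0 reversed sign while at the criterion. Without female ISch 1 57.8% of genes at the criterion were higher, against 49.6%. Settings chosen after seeing the data left out female FID 2 for the interaction and, with 3 male libraries, for the joint fit (287 genes). Depth limits low rows most: 1 gene with 0 counts in batch I may hold up to 0.853 CPM.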
